A study of Mus musculus with 4 samples.

Results

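The barcodes described here are droplets of a single-cell RNA experiment on mouse keratinocytes whose RNA held almost no transcripts of the mitochondrial genome. They were chosen by a fixed rule: at least 1000 genes detected, and fewer than 0.5% of all unique molecular identifiers (UMIs, each standing for 1 captured RNA molecule) from genes of the mitochondrial chromosome. The rule found 22 of 7780 barcodes in the library called MK, or 0.283% (95% exact Clopper-Pearson interval 0.177 to 0.428%). In the library called Diff_MK it found 48 of 7569, or 0.634% (0.468 to 0.840%), so 70 of 15349 barcodes in all. Each set was compared with barcodes of its own library that had at least 1000 genes, 2 to 15% mitochondrial UMIs and a total within the range of the low-mitochondrial barcodes: 827 in MK and 4529 in Diff_MK.

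Both libraries come from MK, a mouse keratinocyte line that carries heritable lineage barcodes and a GFP reporter, grown in E low medium with fetal bovine serum and antibiotics. All samples are labelled with Dox treatment, and GFP-positive cells were sorted before droplet capture with 10x Genomics 3′ v3 chemistry. Growth and treatment labels are the same for both libraries, and the meaning of Diff is not stated in them. Each condition is 1 library, and a further library of each captured the lineage tags. Barcodes of 1 library share its preparation, so they are not replicates, and no p-value is given. Intervals of ratios and shares cover counting error only, and intervals of medians over a gene list show the spread between its genes. The libraries shared 14 barcode sequences, and 0 of the 70 low-mitochondrial barcodes were among them.

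A droplet that holds an intact cell captures cytosolic, membrane-bound, nuclear and mitochondrial RNA together. Malat1 and Neat1 are long non-coding RNAs kept in the nucleus, so a bare nucleus is rich in them and poor in cytosolic messenger RNA. Messenger RNAs of secreted and membrane proteins are translated on the surface of the endoplasmic reticulum (ER), while those of ribosomal proteins, cytoskeleton and metabolic enzymes are translated free in the cytosol. Mitochondrial transcripts lie inside the mitochondria.

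The mitochondrial share is what chose these barcodes and is given as a description. Its median was 0.102% in MK, with a highest value of 0.296%, and 0.0945% in Diff_MK, with a highest value of 0.409%. The nearest barcodes above the threshold stood at 0.651% in MK and 0.663% in Diff_MK, and 30 and 31 barcodes with at least 1000 genes lay between 0.5 and 2%. Summed over the 22 MK barcodes, 101 UMIs came from mitochondrial genes, a share of 0.107% against 6.12% in the comparison barcodes. Summed over the 48 Diff_MK barcodes there were 267 such UMIs, 0.108% against 6.20%. The barcodes were small: the lowest, median and highest totals were 1940, 3805.5 and 10413 UMIs in MK and 1768, 4086.5 and 17103 in Diff_MK, while the comparison medians were 8328 and 11748. Median genes were 1551 in MK and 1474.5 in Diff_MK, against 2734 and 2875. The gene minimum cut through a longer tail: the low-mitochondrial barcodes nearest to it had 1100 and 1029 genes inside and 992 and 948 outside, and 60 and 80 barcodes below 0.5% mitochondrial UMIs had fewer than 1000 genes.

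The working name for these barcodes, nuclei-like droplets, did not match their nuclear RNA. Malat1, the most abundant nuclear-retained RNA of most mammalian cells (mouse genome GRCm38, chr19:5795690-5802672, minus strand, an intergenic non-coding RNA), was scarce in most of them. As a percentage of non-mitochondrial UMIs, the lowest, median and highest values over the 22 MK barcodes were 0, 0.0289 and 5.79%, where the comparison median was 0.891%. Over the 48 Diff_MK barcodes they were 0, 0.0322 and 44.5%, where the comparison median was 1.87%. Malat1 was at 0 in 9 of 22 and 17 of 48 low-mitochondrial barcodes, against 11 of 827 and 1 of 4529 comparison barcodes. It was below 0.1% in 19 of 22 and in 35 of 48, against 4.96% and 0.243% of comparison barcodes. The distributions overlapped at the top: 1 MK and 4 Diff_MK barcodes lay above the 95th percentile of the comparison.

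**Figure D1:**
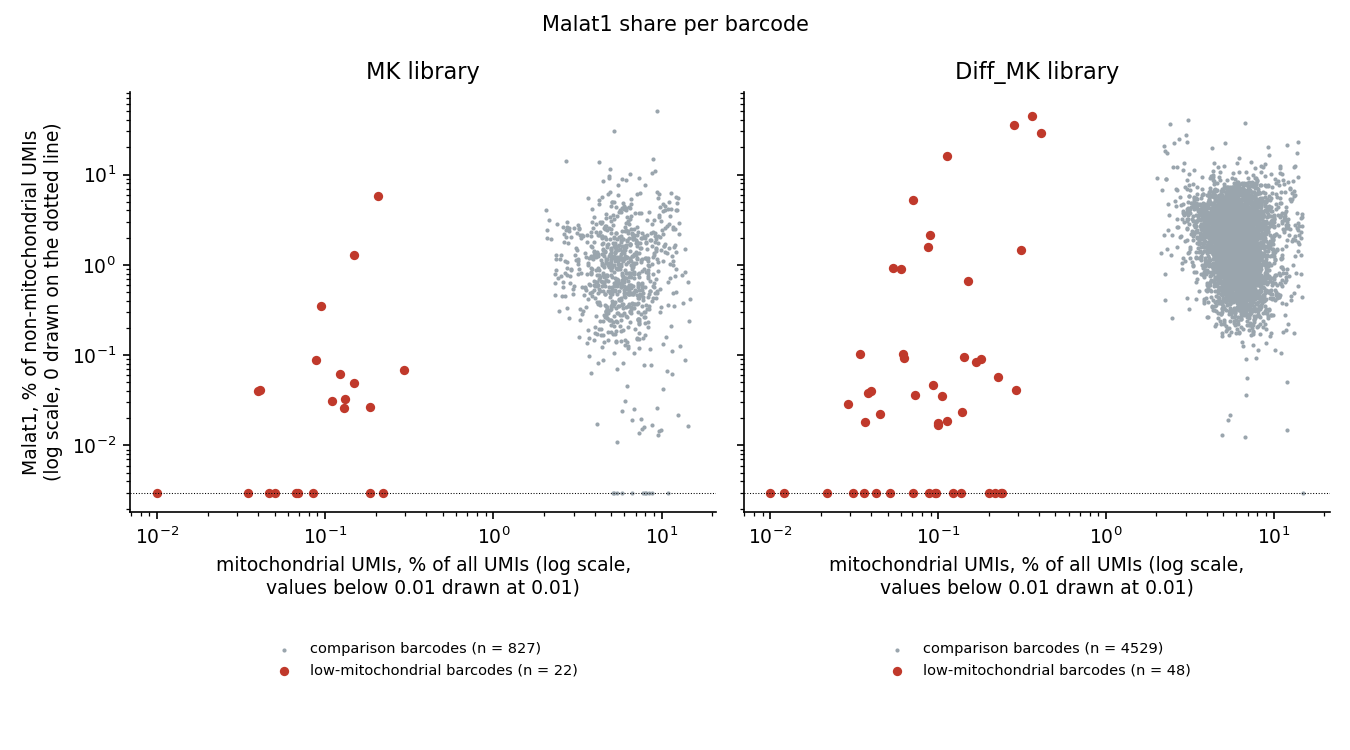
Malat1 as a percentage of non-mitochondrial UMIs (log axis, barcodes without a Malat1 UMI drawn on the dotted line) against mitochondrial UMIs as a percentage of all UMIs (log axis), 1 point per barcode, MK on the left and Diff_MK on the right. Most low-mitochondrial barcodes sit at or below 0.1% Malat1, under the bulk of the comparison barcodes, and a few Diff_MK barcodes sit between 5.23 and 44.5%.

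The gap in Malat1 was also present at equal depth. After each barcode was thinned at random to 2000 non-mitochondrial UMIs, which left out 2 MK barcodes and 1 Diff_MK barcode, Malat1 was detected in 9 of 20 MK barcodes (45%, 23.1 to 68.5%) against 801 of 825 comparison barcodes (97.1%). In Diff_MK it was detected in 25 of 47 (53.2%) against 4525 of 4529 (99.9%). Without thinning the comparison values were 98.7% and 99.98%.

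The summed Malat1 level went in opposite directions in the libraries, and few barcodes carried most of it. In CPM, the UMIs of a gene scaled to a total of 1000000 non-mitochondrial UMIs, Malat1 stood at 2628 in the MK low-mitochondrial barcodes and 14843 in their comparison, a ratio of 0.177 (0.156 to 0.201). In Diff_MK it stood at 34825 against 23667, a ratio of 1.47 (1.44 to 1.5). Of the 8625 Diff_MK Malat1 UMIs, 93.2% were in 5 barcodes that held 16.7% of the UMIs. Those 5 barcodes had Malat1 at 44.5, 35.6, 29.1, 16 and 5.23% of UMIs, and ribosomal protein messages at 9.60, 8.96, 12.2, 32.0 and 34.2%. In MK, 95.1% of the 247 UMIs were likewise in 5 barcodes. The set is therefore not uniform: most barcodes had Malat1 below 0.1%, and 3 Diff_MK barcodes paired very high Malat1 with ribosomal shares near the bottom of the range. With members below 0.2% mitochondrial UMIs the summed Diff_MK ratio was 0.568, and with members below 1% the summed MK ratio was 1.55. That last setting also changed the MK comparison, to 4513 barcodes in place of 827, because its depth range follows the members.

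Neat1 and Kcnq1ot1 were also low in MK. Neat1, the scaffold of nuclear paraspeckles, was at 0 in 16 of 22 MK and 33 of 48 Diff_MK barcodes, and its summed ratios were 0.149 (0.0599 to 0.308) and 1.01 (0.867 to 1.17). Kcnq1ot1, a chromatin-bound antisense RNA of an imprinted domain, had 0 UMIs in MK against 139 CPM, at least 4.36-fold lower on a floor of 3 counts over the group. In Diff_MK it stood at 28.3 against 164 CPM, a ratio of 0.173 (0.0694 to 0.356). Xist, the RNA of the inactive X chromosome, was close to undetected in MK, with 0 UMIs against 2 in all 827 comparison barcodes. In Diff_MK it went the other way, at 105 against 6.4 CPM, a ratio of 16.4 (10.6 to 24.5), with 21 of its 26 UMIs in 1 barcode.

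Messages of chromatin regulators, many of which have long transcripts, were below the comparison. This list is grouped by the function of the protein and does not show where the RNA lies. Of 19 measured in MK, 17 were lower, with a median log2 ratio of -0.69, and of 18 measured in Diff_MK all 18 were lower, with a median of -0.73. The median over all genes tested was -0.03 in MK and 0.05 in Diff_MK, and 51.9% and 46.5% of those genes were lower. Here a gene was measured if it reached 20 CPM in at least 1 arm, and list medians add 0.5 counts to each arm. Chd4, a nucleosome remodeller, was at 128 against 206 CPM in MK and 153 against 193 in Diff_MK. Atrx, another remodeller, had ratios of 0.608 (0.277 to 1.16) and 0.585 (0.375 to 0.871). Kmt2a, a histone methyltransferase, had 0 UMIs in MK against 62.2 CPM, at least 1.95-fold lower, and a ratio of 0.212 (0.0256 to 0.766) in Diff_MK. Genes of the nuclear pore and lamina stood nearer to the comparison. Their medians were -0.14 (-2.32 to 0.63) in MK and -0.20 (-1.14 to 0.33) in Diff_MK, with 5 of 13 and 4 of 11 higher.

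AY036118 was the marker given for these barcodes. It is annotated as a non-coding RNA at chr17:39847113-39848035 on the minus strand, inside Gm42418 at chr17:39846958-39848788 on the plus strand. This locus carries ribosomal RNA sequence, and whether the counting used strand is not given, so the genes cannot be told apart here. AY036118 had 8 UMIs in MK, in 6 of 22 barcodes, 85.1 against 49.0 CPM, a ratio of 1.74 (0.743 to 3.47). In Diff_MK it had 39 UMIs in 21 of 48 barcodes, 157 against 26.6 CPM, a ratio of 5.92 (4.19 to 8.14). The marker was thus at 0 in 16 MK and 27 Diff_MK barcodes. The comparison held 300 UMIs of it over 827 MK barcodes and 1302 over 4529 Diff_MK barcodes, so most of those were at 0 too. Absence was common in both arms, and the marker did not separate single barcodes of the set in either library.

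Gm42418 was the larger signal of that locus. Its lowest, median and highest shares were 0, 0.0858 and 3.83% in MK against a comparison median of 0.0558%, and 0, 0.103 and 3.53% in Diff_MK against 0.0506%. The summed ratios were 2.19 (1.91 to 2.51) and 3.49 (3.22 to 3.77). Most barcodes thus overlapped the comparison, and in MK 144 of 217 UMIs were in 2 barcodes. Against the 5 comparison barcodes nearest in depth to each low-mitochondrial barcode the ratios were 1.31 and 1.89 for Gm42418 and 0.916 and 2.94 for AY036118. Gm26917, another gene with ribosomal RNA sequence, went the other way, with ratios of 0.343 (0.0931 to 0.881) and 0.377 (0.138 to 0.820).

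A wide gap that the rule did not use was in messages translated at the ER. ER chaperones and folding enzymes, together with extracellular matrix proteins and integrins, made up a lowest, median and highest share of 0.0261, 0.0769 and 0.946% over the MK barcodes. The comparison barcodes had 0.196, 0.684 and 4.0%, and 19 of 22 low-mitochondrial barcodes lay below every one of the 827. In Diff_MK the shares were 0, 0.158 and 0.746%, against 0.0420, 0.551 and 2.40%. There 38 of 48 lay below the 5th percentile of the comparison (0.274%), and 4 lay below its lowest value. Separation was thus nearly complete in MK and partial in Diff_MK.

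**Figure D2:**
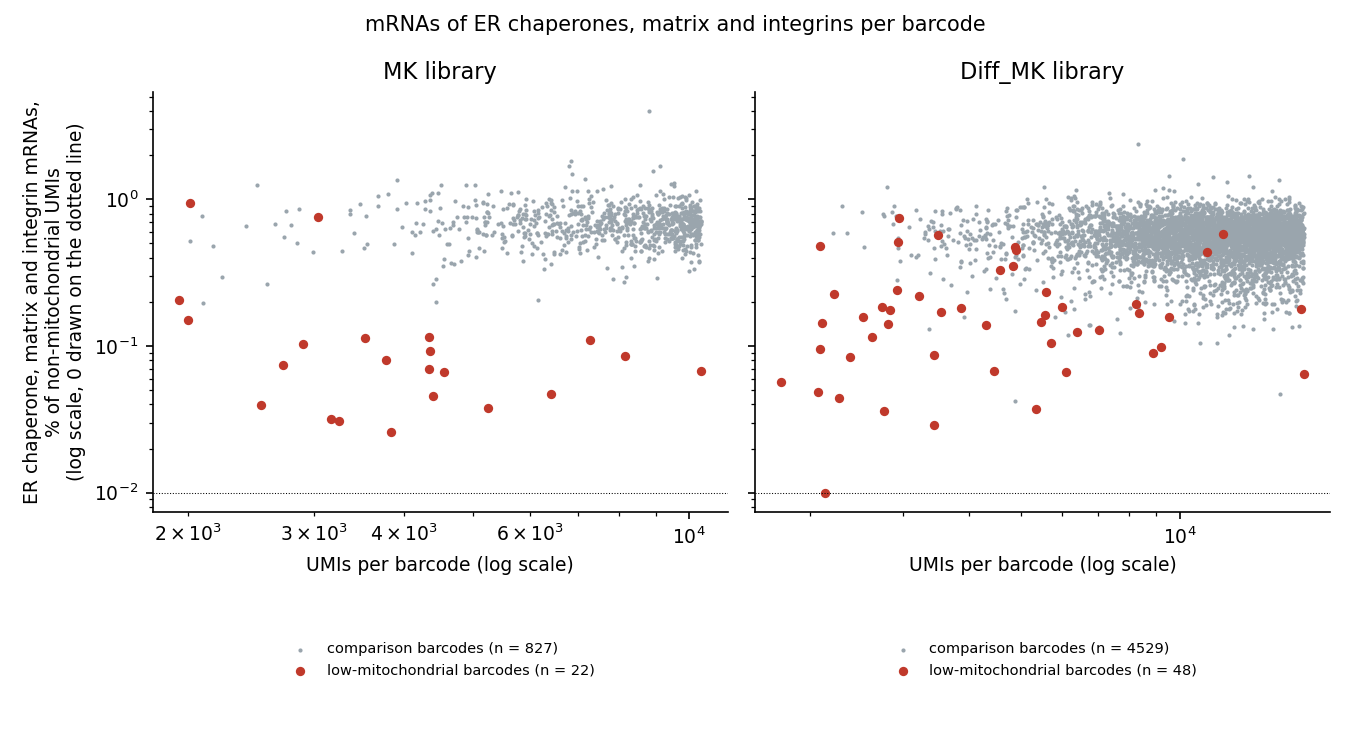
Share of non-mitochondrial UMIs from ER chaperones, matrix proteins and integrins (vertical axis, percent) against UMIs per barcode (log axis), 1 point per barcode, MK on the left and Diff_MK on the right. Most low-mitochondrial barcodes lie low, with medians of 0.0769 against 0.684% in MK and 0.158 against 0.551% in Diff_MK, but the highest of them, at 0.946 and 0.746%, lie above the comparison medians.

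The ER chaperone list holds genes whose proteins fold newly made secretory proteins, and also Sec61b, a subunit of the ER import machinery. Of its 14 measured members, 13 were at least 2-fold lower in MK, where 25.2% of all genes measured on the same minimum were. The median log2 ratio was -2.78 (order-statistic interval over genes -3.67 to -1.71), and the summed level was 798 against 4258 CPM. In Diff_MK 9 of 14 were at least 2-fold lower, where 12.8% of all genes were, with a median of -1.07 (-1.36 to -0.23) and 1728 against 3317 CPM. There 2 of the 14 were higher, 1 of them at least 2-fold. Hsp90b1, an ER chaperone of integrins and secreted proteins, had lowest, median and highest shares of 0, 0 and 0.149% in MK and 0, 0 and 0.136% in Diff_MK, against comparison medians of 0.0480 and 0.0331%. It was at 0 in 19 of 22 and 35 of 48 barcodes, with ratios of 0.10 (0.0326 to 0.235) and 0.242 (0.153 to 0.363). Calr, a calcium-binding chaperone of glycoproteins, had ratios of 0.154 (0.0768 to 0.276) and 0.394 (0.295 to 0.515). Pdia3, a disulfide isomerase that works with it, had 3 UMIs in MK, a ratio of 0.0671 (0.0138 to 0.196), and 0.386 (0.271 to 0.535) in Diff_MK.

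Matrix and integrin messages, which encode the basement membrane and its receptors, showed the same picture in both libraries. All 14 measured in MK and all 15 in Diff_MK were at least 2-fold lower, where 25.2% and 12.8% of all genes were. Their medians were -2.80 (-3.61 to -2.10) and -2.63 (-3.17 to -2.04), and the summed levels were 362 against 2777 CPM and 343 against 2194. Itgb1, the beta subunit shared by many integrins (chr8:128685654-128733200), was at 0 in 18 of 22 MK barcodes, with a highest share of 0.0996% and a comparison median of 0.0644%. In Diff_MK it was at 0 in 35 of 48, with a highest share of 0.0678% and a comparison median of 0.0331%. Its ratios were 0.0749 (0.0243 to 0.175) and 0.231 (0.143 to 0.354), and in MK 0.734 with members below 1% mitochondrial UMIs and 0.197 with members of at least 500 genes. Itga6, its partner in laminin binding, was at 0 in 20 of 22 and 41 of 48, against 19.0% and 17.8% of comparison barcodes.

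The remaining members followed. Col4a1 and Col4a2, the chains of basement membrane collagen, had 1 UMI each in MK, with ratios of 0.0529 (0.00134 to 0.295) and 0.0642 (0.00162 to 0.359), and 7 and 6 UMIs in Diff_MK, with ratios of 0.152 and 0.164. Lamb3, a chain of the laminin that anchors keratinocytes, had 0 UMIs in MK against 152 CPM, at least 4.76-fold lower, and 3 UMIs in Diff_MK, a ratio of 0.117 (0.0241 to 0.342). Col17a1, a hemidesmosome collagen, had ratios of 0.209 (0.0678 to 0.489) and 0.109 (0.0523 to 0.201). Sparc, a secreted matrix-binding glycoprotein, had 0.140 and 0.160. Members below 1% mitochondrial UMIs were 28 MK barcodes, set against 4513 comparison barcodes in place of 827. The MK medians were then -0.83 for ER chaperones and -1.51 for matrix and integrins, and the log2 ratio of Col4a1 was -0.94 in place of -4.24. Against the 5 comparison barcodes nearest in depth, the medians were -2.96 and -2.90 in MK and -1.10 and -2.74 in Diff_MK.

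Other groups of ER-translated messages, listed after these values were seen, also had medians below the comparison. All 5 collagens measured, some of which are also in the matrix list, were at least 2-fold lower in each library, where 25.2% and 12.8% of all genes were. Their medians were -3.42 and -2.63, and -1.27 and -0.90 when every gene with 10 counts was admitted. The cathepsins, lysosomal proteases made at the ER, had medians of -3.55 and -1.30. Ctsl, cathepsin L, was at 106 against 1301 CPM in MK and 327 against 839 in Diff_MK, and it was at 0 in 15 of 22 and 25 of 48 barcodes where 1.09% and 1.48% of comparison barcodes lacked it. Tetraspanins, membrane proteins with several membrane passes, had medians of -2.39 and -1.04. Translocon and glycosylation genes, the ER's own import and sugar-transfer machinery, had -1.80 and -1.0, with small subunits at the mild end: Sec61b had ratios of 0.833 (0.543 to 1.22) and 1.09 (0.856 to 1.36), and Ssr4 0.430 (0.228 to 0.737) and 0.853 (0.686 to 1.05). Sec61b is also in the ER chaperone list. In Diff_MK 1 of 5 cathepsins, 2 of 10 tetraspanins and 2 of 22 translocon and glycosylation genes were higher than in the comparison. The range over the Diff_MK cathepsins was -1.37 to 0.64 and the interval over the tetraspanins -1.91 to 0.66, so both spanned 0. In MK 1 of 22 translocon and glycosylation genes was higher. The medians of these groups depended on the settings. At a minimum of 200 CPM the translocon and glycosylation genes had -0.67 and -0.056, so in Diff_MK the abundant ones stood close to the comparison. With members below 1% mitochondrial UMIs the MK medians were -0.82 for cathepsins, -0.64 for tetraspanins and -0.98 for translocon and glycosylation, and with every gene of 10 counts the Diff_MK cathepsin median was -0.14.

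Membrane transporters were listed by where the protein goes. Solute carriers of other membranes had median log2 ratios of -1.79 in MK, over 39 genes, and -0.76 in Diff_MK, over 31. The MK median was -0.39 when genes at 0 UMIs were set to the floor of 3 counts, and the Diff_MK median ranged from -2.09 to -0.39 over the alternatives run. Slc38a2, an amino acid transporter of the cell surface, had 0 UMIs in MK against 229 CPM, at least 7.18-fold lower, and a ratio of 0.227 (0.117 to 0.397) in Diff_MK. Slc2a1, the main glucose transporter of keratinocytes, had 0 UMIs in MK against 107 CPM, at least 3.34-fold lower, and a ratio of 0.145 (0.0747 to 0.252) in Diff_MK. The Slc25 carriers, which are made in the cytosol and imported into mitochondria, had medians of 0.22 and 0.14, and -0.55 and -0.13 when every gene with 10 counts was admitted. Mitochondrial ribosomal proteins, imported in the same way, had medians of 0.20 in MK, over 77 genes, and 0.26 in Diff_MK, over 76. The MK value of the latter was -0.18 among the 4 barcodes with at least 2000 genes.

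**Figure D3:**
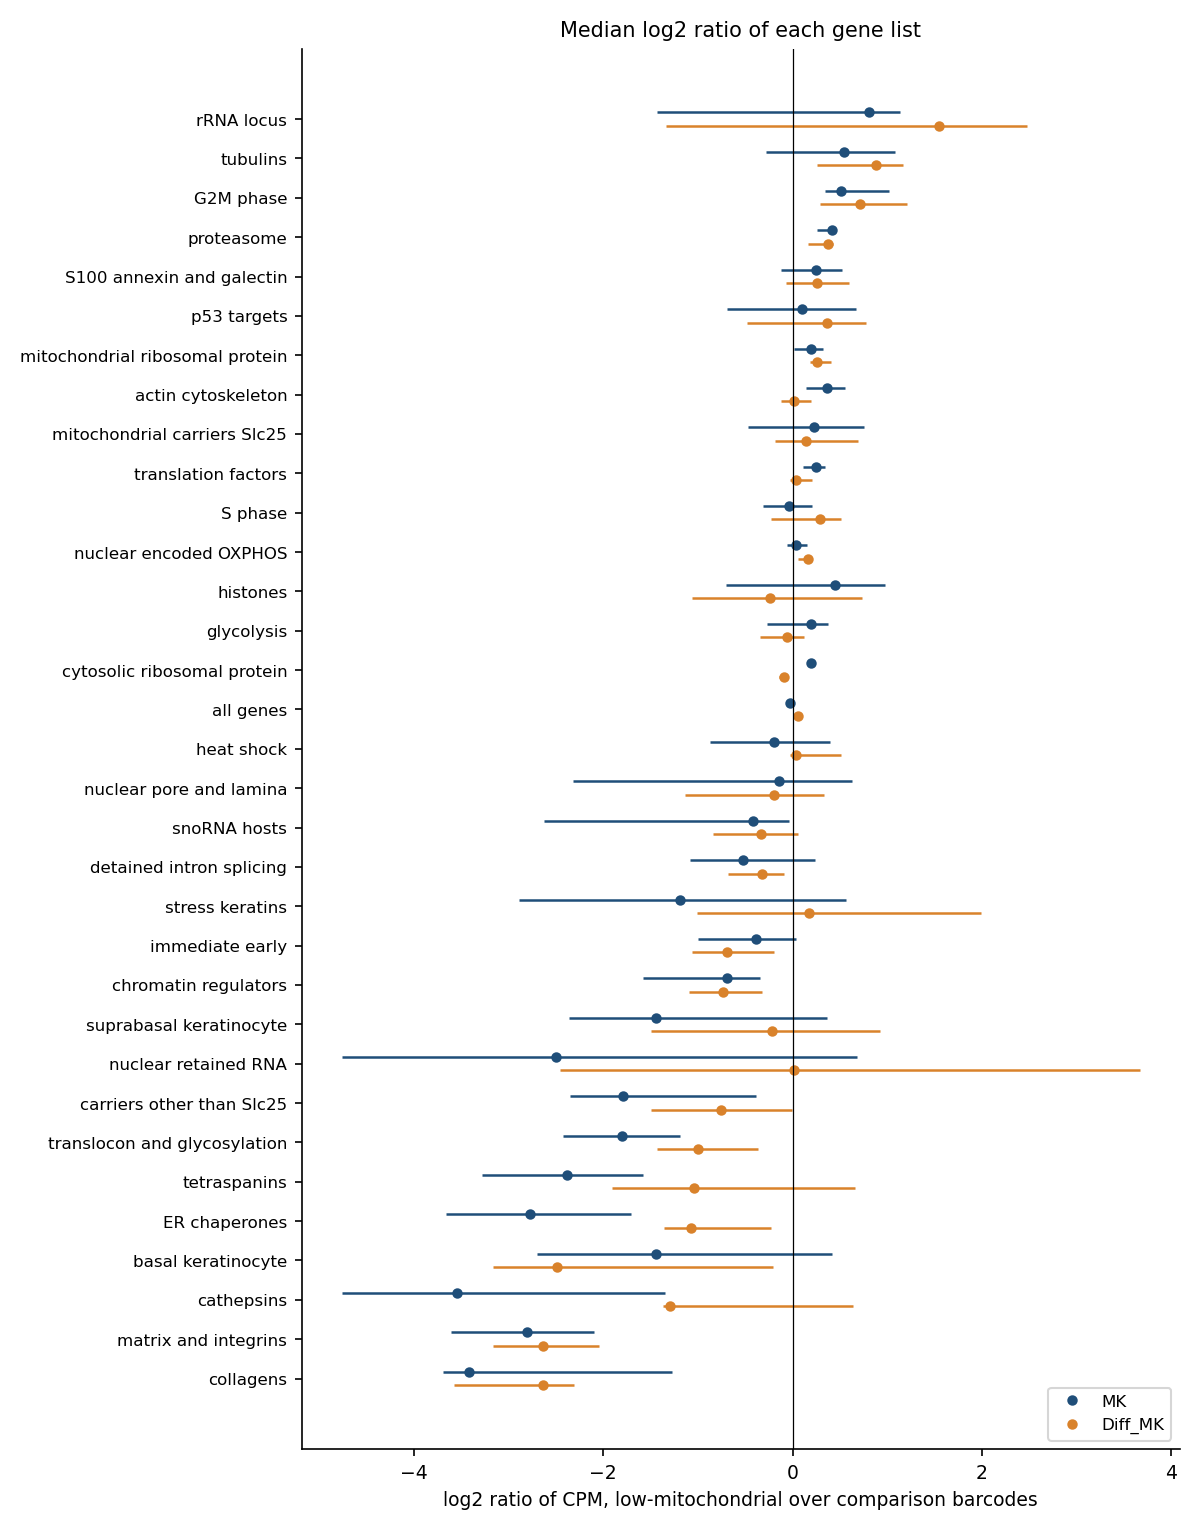
Median log2 ratio of low-mitochondrial over comparison barcodes for each gene list (horizontal axis), MK in blue and Diff_MK in orange, with the order-statistic interval over the genes of the list, or their range where fewer than 6 genes were measured. ER chaperones and matrix genes lie left of -1 in both libraries, while G2/M, tubulin and proteasome genes lie right of 0.

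Across all genes with at least 50 CPM in at least 1 arm, 645 of 3589 were at least 2-fold lower in the MK low-mitochondrial barcodes (18.0%) and 247 were at least 2-fold higher (6.88%). In Diff_MK 301 of 3056 were lower (9.85%) and 109 higher (3.57%). At this minimum 50 CPM stands for 4.70 UMIs in MK and 12.4 in Diff_MK, so many of these single-gene ratios are coarse. At 200 CPM the counts were 92 lower (9.86%) and 21 higher (2.25%) of 933 genes in MK, and 56 lower (7.10%) and 19 higher (2.41%) of 789 in Diff_MK. When the arms were scaled so that the median gene with 50 CPM in both had a ratio of 1, the median of all genes moved by -0.14 in MK and -0.15 in Diff_MK. This gave 658 lower and 132 higher in MK, and 356 lower and 52 higher in Diff_MK, while CPM over all UMIs gave 244 lower and 147 higher in Diff_MK.

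The libraries, whose low-mitochondrial barcodes are separate droplets, gave related ratios. Over 2826 genes at 50 CPM in both, Pearson's r of the log2 ratios was 0.596 and Spearman's rho 0.486, and over 700 genes at 200 CPM they were 0.697 and 0.476. Genes are not independent replicates, and both libraries come from 1 cell line. Of the genes at least 2-fold lower, 213 were lower in both, which is 40.4% of the 527 in MK and 80.1% of the 266 in Diff_MK. Of those at least 2-fold higher, 15 were higher in both, 20% of 75 in MK and 21.1% of 71 in Diff_MK. These shares stand beside a base of all 2826 genes. Among those, 527 were at least 2-fold lower in MK and 266 in Diff_MK, and 75 and 71 were higher.

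**Figure D4:**
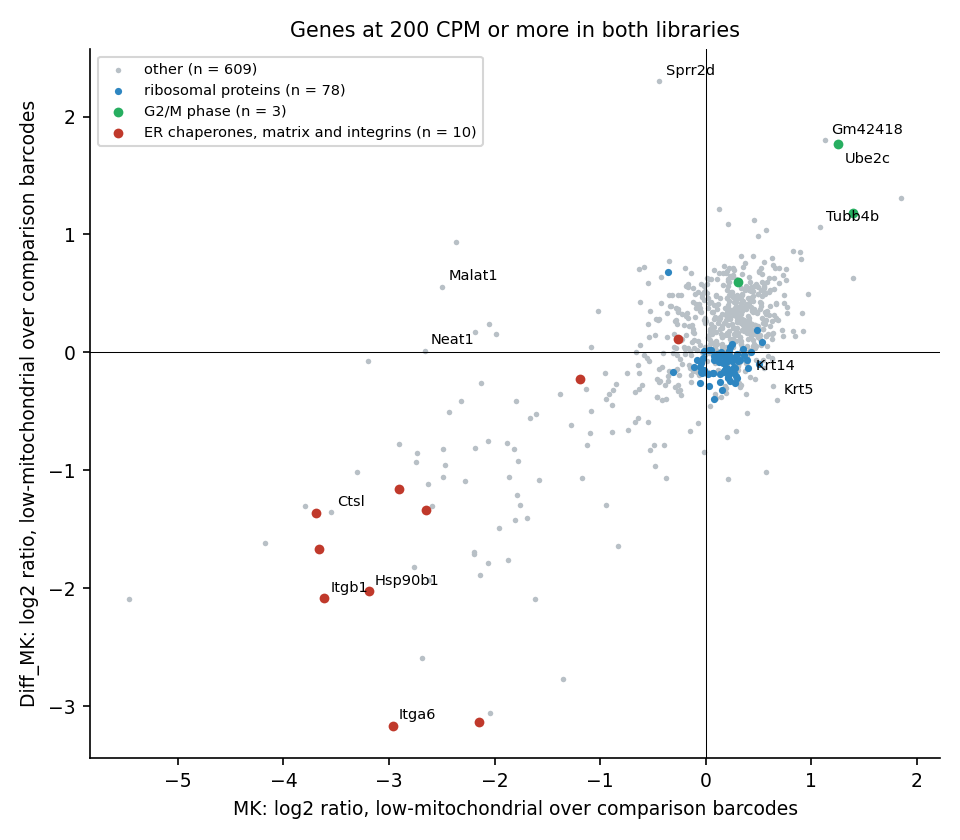
Log2 ratio of low-mitochondrial over comparison barcodes in MK (horizontal axis) against Diff_MK (vertical axis) for the 700 genes with at least 200 CPM in both libraries, with ER or matrix, G2/M and ribosomal protein genes marked. Of the 10 ER or matrix genes all but Sec61b, at -0.26 and 0.12, lie to the lower left, the 3 G2/M genes to the upper right, and the 78 ribosomal protein genes close to the origin.

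Ranked by the ratio nearer to 1 in the libraries, the 15 lowest genes included Col4a1, Itga6, Lamb3, Sparc, Col18a1, Itgb1, Kcnq1ot1, Hsp90b1, Col4a2, Slc38a2, Plec, Aplp2, Ktn1 and Tecr. Of these, all but Kcnq1ot1 and Plec encode secreted, membrane or ER proteins. The share of such proteins among all genes at this minimum was not counted, so this only describes the named genes. Plec, the linker of keratin filaments to hemidesmosomes, had ratios of 0.149 (0.0306 to 0.435) and 0.124 (0.0454 to 0.27). Aplp2, a single-pass membrane protein, had 0.150 and 0.255, but its MK log2 ratio was -0.27 in place of -2.73 with members below 1% mitochondrial UMIs. Ktn1, an ER membrane protein that binds kinesin, had 0.129 and 0.278. Tecr, an ER enzyme of fatty acid elongation, had 0.205 and 0.306.

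The 15 genes at the other end of that ranking were Gsta4, Ube2c, Gm42418, Tubb4b, Cdk1, Kpna2, Cdca8, Tubb3, Tuba1b, Ubb, Tuba1c, Cks2, Ccnb1, Chmp3 and Klc3. They include 4 tubulins and several genes of mitosis. Ube2c, which loads ubiquitin for the anaphase-promoting complex, had lowest, median and highest shares of 0, 0.0300 and 0.210% in MK against a comparison median of 0.0119%. In Diff_MK they were 0, 0.0259 and 0.382% against a comparison median of 0. The summed levels were 692 against 286 CPM and 662 against 193, ratios of 2.42 (1.86 to 3.09) and 3.42 (2.92 to 4.0).

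Cdk1, the kinase that drives entry into mitosis, was at 0 in 8 of 22 MK and 21 of 48 Diff_MK barcodes, where 49.6% and 62.4% of comparison barcodes lacked it. Its ratios were 2.69 (1.84 to 3.81) and 2.30 (1.70 to 3.03). Ccnb1, the cyclin that activates it, had 2.09 (1.19 to 3.43) and 2.41 (1.57 to 3.55), and Cks2, its small binding subunit, had 2.26 (1.56 to 3.18) and 1.80 (1.32 to 2.39). Kpna2, a nuclear import receptor, and Cdca8, a subunit of the chromosomal passenger complex, had 10 and 16 UMIs in MK and ratios of 3.86 and 2.98, and 3.04 and 2.34 in Diff_MK. Of the others, Gsta4, first in the ranking and a glutathione transferase, had 3.84 (2.35 to 5.97) and 2.51 (1.99 to 3.12), and Ubb, a polyubiquitin gene, had 1.79 and 1.82. Chmp3, an ESCRT subunit of membrane scission, had 2.04 and 1.76, and Klc3, a kinesin light chain, had 3.0 and 1.97.

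As a list, 17 of 20 G2/M genes were higher in MK, where 48.1% of all genes were, and 16 of 19 in Diff_MK, where 53.5% were. At least 2-fold higher were 6 and 7 of them, against 9.32% and 5.72% of all genes, and the medians were 0.51 (0.34 to 1.02) and 0.71 (0.29 to 1.2). Per barcode the G2/M share had a lowest, median and highest value of 0.0462, 0.348 and 0.578% in MK against a comparison median of 0.146%. In Diff_MK it was 0, 0.183 and 0.925% against 0.0207%. The groups overlapped throughout, since the comparison ranged from 0 to 0.947% and from 0 to 0.927%. The list did not move as 1 block: Mki67, a coat protein of mitotic chromosomes with a long transcript, had 2 and 5 UMIs and ratios of 0.190 (0.0230 to 0.689) and 0.272 (0.0883 to 0.636). S-phase genes had medians of -0.04 and 0.29, and Rrm2, which makes deoxynucleotides, had ratios of 2.67 (2.03 to 3.44) and 1.56 (1.17 to 2.04).

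Tubulins, the subunits of microtubules and a list added after the values were seen, had medians of 0.54 (-0.28 to 1.08) and 0.88 (0.26 to 1.17), and the MK interval spans 0. Of 10 measured genes, 7 were higher in MK, where 48.1% of all genes were, and 10 in Diff_MK, where 53.5% were. Tubb4b had lowest, median and highest shares of 0.0396, 0.198 and 0.450% in MK against a comparison median of 0.0819%. In Diff_MK they were 0, 0.113 and 0.421% against 0.0484%. Its ratios were 2.12 (1.82 to 2.45) and 2.09 (1.88 to 2.33), and those of Tuba1b were 1.87 (1.56 to 2.22) and 1.81 (1.56 to 2.10).

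Messages of cytosolic ribosomal proteins stood near the comparison. Ribosomal protein genes held 16.7, 26.9 and 32.9% of UMIs (lowest, median, highest) in MK against a comparison median of 24.5%, and 8.96, 27.8 and 43.2% in Diff_MK against 29.9%. Of 80 genes measured, 67 were higher in MK, where 48.1% of all genes were, and 66 were lower in Diff_MK, where 46.5% were. The medians were only 0.20 and -0.09, and the Diff_MK median was 0.0045 with CPM over all UMIs. None of the 80 was 2-fold apart in either library. Rpl13 had ratios of 1.10 (1.03 to 1.17) and 0.840 (0.808 to 0.873), and Eef1a1, the elongation factor that delivers transfer RNA, had 1.2 (1.11 to 1.29) and 1.03 (0.988 to 1.07).

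Proteasome subunits, which degrade ubiquitin-marked proteins, were above the comparison in both libraries. Their share had a lowest, median and highest value of 0.398, 1.41 and 2.03% in MK against a median of 1.06%, and of 0.215, 1.09 and 2.03% in Diff_MK against 0.785%. In each library 30 of 35 genes were higher, where 48.1% and 53.5% of all genes were, with medians of 0.41 and 0.37. Psma3, a subunit of the catalytic core, had ratios of 1.59 (1.28 to 1.95) and 1.33 (1.13 to 1.56). Under every alternative run, the medians stayed between 0.15 and 0.50 in MK and between 0.22 and 0.57 in Diff_MK.

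The other cytosolic groups differed less. Medians were 0.25 and 0.04 for translation factors, 0.36 and 0.02 for the actin cytoskeleton, 0.19 and -0.06 for glycolysis and -0.20 and 0.03 for heat shock proteins, in MK and Diff_MK. Several of these values are smaller than the shift of 0.14 to 0.15 that the scaling alone made. Nuclear-encoded subunits of oxidative phosphorylation, whose proteins are imported into mitochondria, had medians of 0.04 and 0.17 over 77 genes, so this list as a whole did not share the low level of the mitochondrial genes. Single members did lie lower: Cox4i1, a subunit of cytochrome oxidase, was at 1234 against 1912 CPM and 1300.1 against 1613, and Ndufa13, a subunit of complex I, had ratios of 0.225 (0.0823 to 0.490) and 0.592 (0.445 to 0.773). Among single abundant messages, Actb had ratios of 0.855 and 1.08, Gapdh 1.14 and 0.811, and Tpt1, a growth-related cytosolic protein, 1.18 and 1.28.

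Immediate early genes, which respond to signals and to cell handling, had medians of -0.39 and -0.69. Fos had 2 UMIs in MK, a ratio of 0.20 (0.0242 to 0.725), and in Diff_MK a ratio of 0.634 (0.499 to 0.795). Jund, a more stable partner of Fos, had 0.889 (0.568 to 1.33) and 1.5 (1.25 to 1.78).

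Keratinocyte messages were counted in all of these barcodes. Krt14, a keratin of basal keratinocytes, had at least 1 UMI in every one of the 70. No cell type that lacks Krt14 was at hand to measure free RNA, so the part of free RNA in these counts was not tested. Its share had a lowest, median and highest value of 0.0517, 0.675 and 2.39% in MK against a comparison median of 0.437%. In Diff_MK the values were 0.0357, 0.998 and 6.30% against 1.36%. Krt14 was at 7192 against 5389 CPM in MK and 14754 against 17009.6 in Diff_MK. Krt5, its filament partner, was at 1575 against 982 CPM and 3283 against 4356. The ratios were thus above 1 in MK, 1.33 and 1.60, and below 1 in Diff_MK, 0.867 and 0.754. With members below 1% mitochondrial UMIs the MK ratios were 0.842 and 0.903.

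The basal keratinocyte list differed between its sum and its median. The summed ratio was 1.21 in MK and 0.777 in Diff_MK, while the median log2 ratios were -1.45 and -2.49. The list holds abundant keratins as well as integrins and hemidesmosome genes. Krt15 and Lgals7, a basal keratin and a galectin that were far more abundant in Diff_MK, had ratios there of 0.228 (0.178 to 0.287) and 0.282 (0.231 to 0.341), with 57 of 72 Krt15 UMIs in 1 barcode. The suprabasal keratinocyte list had medians of -1.44 in MK and -0.21 in Diff_MK. Of its measured genes 4 of 10 and 5 of 13 were higher, where 48.1% and 53.5% of all genes were. Differentiation genes went both ways. Ly6d, a membrane-anchored surface protein, had 0.223 and 0.289, but 0.954 in MK with members of at least 500 genes. Spink5, a secreted protease inhibitor, had 0.248 and 0.354. Sprr1b, a cytosolic precursor of the cornified envelope, had 1.03 (0.753 to 1.38) and 1.02 (0.913 to 1.13). Clu, a secreted chaperone, had 0 UMIs in the Diff_MK barcodes against 148 CPM, at least 12.2-fold lower. Slpi, another secreted protein, had 0.103 and 0.949. Others were higher in Diff_MK: Sprr2d had a ratio of 4.95 (4.41 to 5.52), Krt6b 4.05 (3.14 to 5.14) and Lor, detailed further below, 6.45. In MK Sprr2d had 0.731 (0.399 to 1.23), Lor 0.511, and Krt6b 0 UMIs against 23.5 CPM. Among Diff_MK barcodes with at least 2000 genes the log2 ratio of Sprr2d was -0.87.

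Lists of melanocyte, fibroblast, immune, endothelial and erythroid markers were nearly absent. Over their 37 genes the low-mitochondrial barcodes held 1 UMI in MK and 2 in Diff_MK, and 0 of the 37 reached the level at which a gene was measured. The erythroid list was at 0 UMIs in both sets.

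Differences between the libraries were also present within the low-mitochondrial barcodes. Among 830 genes at 200 CPM, 28 were at least 2-fold higher in Diff_MK than in MK in the comparison barcodes (3.37%), and 27 of these 28 (96.4%) were higher in Diff_MK in the low-mitochondrial barcodes too, where 43.4% of all 830 were. Of the 28 at least 2-fold lower in Diff_MK (3.37%), 24 (85.7%) were lower there too, where 56.6% of all were. Krt14 was 2.05 times higher in Diff_MK (1.89 to 2.23) among low-mitochondrial barcodes and 3.16 times among comparison barcodes. Krt5 was 2.08 and 4.44 times higher, and Lgals7 8.12 (3.37 to 25.5) and 54.8 times. Sprr1b was 2.88 and 2.92 times higher. ER chaperones did not follow: Diff_MK was 2.17 times MK (1.69 to 2.81) among low-mitochondrial barcodes and 0.779 times among comparison barcodes.

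Long genes were lower on the whole. Genes spanning at least 50 kb in the GENCODE vM21 annotation had a median log2 ratio of -0.23 in MK (736 genes) and -0.12 in Diff_MK (589), while those under 5 kb had 0.14 and 0.11. Genes with at least 6 kb of exonic sequence had -0.26 and -0.10. Across genes, Spearman's rho of the log2 ratio with span was -0.155 in both libraries, and with exonic length -0.200 in both. These are descriptions across genes that also differ in abundance and in what they encode. The median for genes of 50 kb was 0.02 in Diff_MK at a minimum of 200 CPM.

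Along the mitochondrial share, the low values stopped at the threshold more abruptly in MK than in Diff_MK. Within the depth range of the low-mitochondrial barcodes, the MK median share of ER chaperones, matrix and integrins was 0.0693% below 0.1% mitochondrial UMIs (11 barcodes), 0.0829% at 0.1 to 0.2% (8) and 0.0740% at 0.2 to 0.5% (3). It was 0.595% at 0.5 to 1% (3) and 0.688% at 1 to 2% (8), close to the 0.669% at 2 to 5% (273). In Diff_MK the corresponding medians were 0.142, 0.142, 0.341, 0.152, 0.263 and 0.510%, over 27, 11, 10, 2, 27 and 1104 barcodes.

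Malat1 medians over the same bins were low up to the threshold and above the comparison just past it. In MK they were 0, 0.0321, 0.0685, 1.18, 2.28 and 0.920%. In Diff_MK they were 0.0225, 0.0353, 0.0491, 15.8, 7.43 and 2.43%. Barcodes at 0.5 to 2% mitochondrial UMIs, which are no members of the set, thus had Malat1 medians from 1.18 to 15.8%, where the bins below 0.5% had at most 0.0685%. The bins at 0.5 to 1% held 3 and 2 barcodes, and those at 1 to 2% held 8 and 27.

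**Figure D5:**
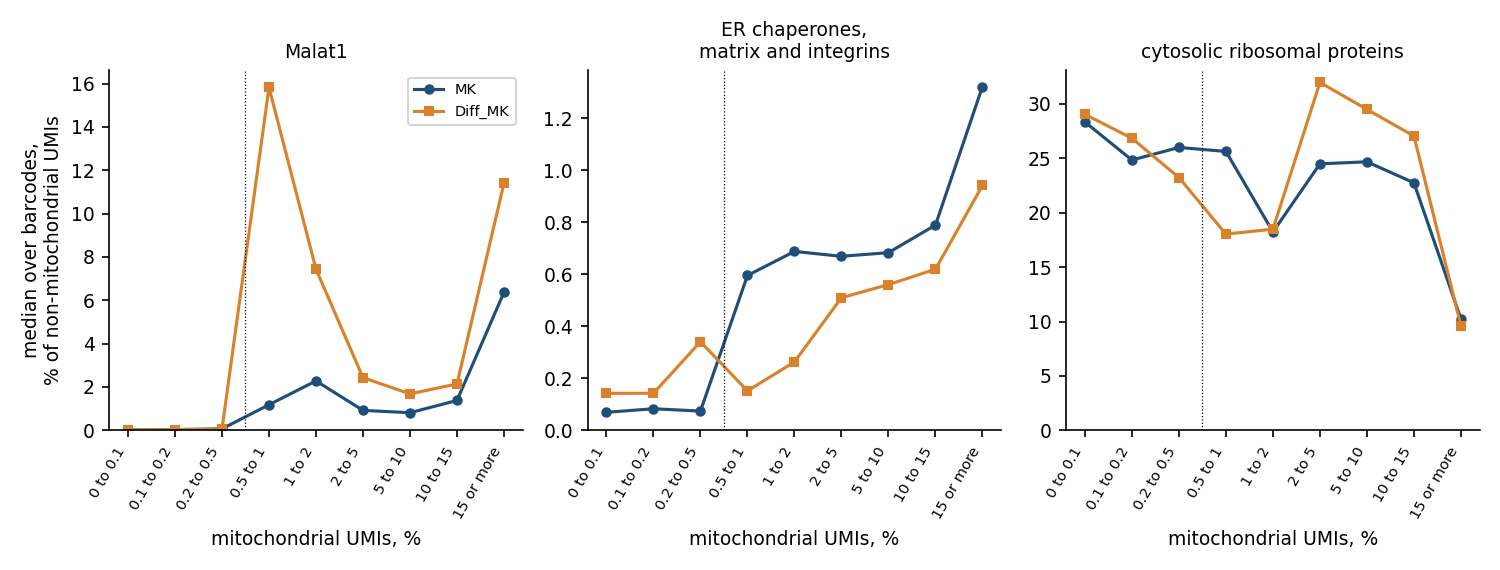
Median share of non-mitochondrial UMIs (vertical axes, percent) by bin of mitochondrial share (horizontal axis) for Malat1, for ER and matrix genes and for ribosomal protein genes, in MK and Diff_MK, with a dotted line at the threshold of 0.5%. Malat1 is at most 0.0685% in the bins left of the line and at least 0.814% in MK and 1.68% in Diff_MK right of it.

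Smaller barcodes with the same low mitochondrial share were also low in Malat1, while their other ratios depended on what they were set against. The 47 MK and 55 Diff_MK barcodes with at least 500 but fewer than 1000 genes and under 0.5% mitochondrial UMIs were first set against the same comparison barcodes, which are deeper. Malat1 had ratios of 0.0629 (0.0469 to 0.0824) and 0.509 (0.473 to 0.546), and Gm42418 6.99 (6.31 to 7.73) and 3.88 (3.34 to 4.49). The summed ER chaperones had ratios of 0.472 and 0.485, matrix and integrin genes 0.381 and 0.321, ribosomal protein genes 0.909 and 0.793, and G2/M genes 1.51 and 2.39. The ER and matrix gap in MK was smaller in these barcodes than in the larger ones, where the summed ratios were 0.187 and 0.130. They were then set against the barcodes of the same gene range but with 2 to 15% mitochondrial UMIs, 26 in MK and 32 in Diff_MK.

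In that comparison of small barcodes Malat1 had ratios of 0.0181 (0.0135 to 0.0239) and 0.0581 (0.0540 to 0.0624). The small barcodes with 2 to 15% mitochondrial UMIs themselves held Malat1 at 51479 and 207174 CPM, above the 14843 and 23667 of the larger comparison barcodes. In MK the ER chaperones had a ratio of 0.564 (0.439 to 0.723) and matrix and integrin genes 0.435 (0.311 to 0.602), so both stayed below 1. In Diff_MK they had 0.872 (0.681 to 1.11) and 1.04 (0.699 to 1.53), and neither interval was apart from 1. Gm42418 had 4.35 (3.39 to 5.64) in MK but 0.70 (0.586 to 0.833) in Diff_MK, on the other side of 1 from the ratio against the larger barcodes. G2/M genes had 3.91 (2.67 to 5.87) and 19.9 (11.8 to 36.3), and ribosomal protein genes 0.703 and 0.865. The Diff_MK G2/M ratio set 2814 against 141 CPM in the 32 small barcodes, so its lower side rests on very few UMIs.

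The lineage tags could not be read in these barcodes. The deposited tag tables list only barcodes with 2.52 to 9.98% mitochondrial UMIs and 2002 to 4999 genes in MK, and 2.51 to 9.99% and 1501 to 5498 genes in Diff_MK. Of the RNA barcodes within those windows, 22 of 6433 and 5 of 6459 had no entry. So 0 of 22 and 0 of 48 low-mitochondrial barcodes were listed, which follows from the window and says nothing about tags in them. Among the comparison barcodes, 56.8% in MK and 85.0% in Diff_MK had a tag with at least 3 counts and 10% of the tag counts of the barcode. Only 77.9% and 94.1% of the comparison barcodes were listed in the tag tables, and an unlisted barcode counts as without a tag.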

How the data were processed

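An RNA and a tag library each of MK and Diff_MK were used. The values deposited by the authors are raw UMI counts per gene and barcode, and tag counts per barcode. Cell Ranger 6.1.2 made them, per the file headers, and the genome was mm10, per the submitters' processing notes. Annotation, intron handling and strand use are details not given in the sources used here. MK's 7780 RNA barcodes held 116732898 UMIs.

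UMIs were summed over barcodes per arm and divided by non-mitochondrial totals of 93994 (MK) and 247667 (Diff_MK) UMIs for the low-mitochondrial barcodes. Intervals of ratios are exact conditional binomial ones and those of shares Clopper-Pearson, at 95%. Doublets were neither called nor removed. Named genes were the 15 highest and 15 lowest ratios at 50 CPM or more in at least 1 arm of both libraries, ranked by the ratio nearer to 1 with 5 counts added, the most abundant and most extreme members of each list, and a few fixed genes. A gene that the rule names is not reported here. Ctsl, Slc2a1, Clu, Slpi, Sprr2d, Krt6b, Pdia3, Tpt1 and Xist's barcode counts were picked out after their values were seen. So were the lists of collagens, cathepsins, tetraspanins, translocon, carriers, mitochondrial ribosomal proteins and tubulins. The barcodes and all lists were chosen with earlier results of these data known. Positions and lengths come from GENCODE vM21, matched by identifier for 32235 of 32285 genes (99.8%). Python 3.11.15, numpy 2.4.6, scipy 1.17.1 and pandas 2.3.3 were used, and the scripts were tested on simulated data. Alternatives changed the thresholds, the comparison barcodes, the scaling and the minimum level.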

Additional observations from a re-analysis of the deposited data

Results flagged for a closer look

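For some genes and lists the ratio of low-mitochondrial to comparison barcodes lay on opposite sides of 1 in MK and Diff_MK, with both counting intervals apart from 1. The difference between the libraries was not tested, since each is 1 library. Expressed as the Diff_MK minus the MK log2 ratio, it was 3.06 for Malat1, whose ratios were 0.177 and 1.47, and 3.03 for the summed list of nuclear-retained RNAs, which Malat1 dominates. In Diff_MK 93.2% of the Malat1 UMIs of the set were in 5 barcodes.

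Among keratins and envelope genes the difference was -0.62 for Krt14, -1.09 for Krt5, 3.66 for Lor, 3.59 for Krt16 and -1.59 for Krt19. Lor, the main protein of the cornified envelope, had ratios of 0.511 and 6.45, with 30 of its 45 Diff_MK UMIs in 1 barcode. Krt16, a keratin of stressed epidermis, had 0.111, from 2 UMIs in MK, and 1.34. Krt19, a keratin of simple epithelia and stem cells, had 1.49 and 0.495. The summed basal keratinocyte list differed by -0.64, with ratios of 1.21 and 0.777.

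Smaller differences were found for the summed ribosomal protein genes, -0.27, with ratios of 1.12 and 0.928, and for glycolysis, -0.38, with ratios of 1.17 and 0.898.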

How the results depend on the processing

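Of 118 named gene ratios with an interval apart from 1, 105 kept their direction under every alternative in which they were computed. Alternatives of the minimum level were not applied to single genes. A gene at 0 UMIs in an arm was left out of that setting. No paired analysis was possible because each group is 1 library. The cause of the changes below was not tested. Where the members changed, the comparison followed their depth range, which for members below 1% gave 4513 MK barcodes in place of 827. Counts are genes at least 2-fold apart and list values are median log2 ratios. The settings with at least 500 genes, with the minimum in the comparison arm alone, without the largest member barcode and with genes at 0 set to the floor were chosen after seeing the data.

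In MK, members below 1% mitochondrial UMIs gave 110 higher and 303 lower genes, 0.039 for ribosomal proteins, 0.26 for the proteasome, -0.83 for ER chaperones, -1.51 for matrix and integrins and 0.25 for G2/M, and log2 ratios of 0.63 for Malat1, 1.43 for Neat1, -0.25 for Krt14, -0.15 for Krt5 and 2.53 for Lor. At least 2000 genes left 0.0514% of barcodes, with 658 higher genes, 0.29 for ribosomal proteins, 0.15 for the proteasome, -0.18 for mitochondrial ribosomal proteins, -1.75 for Gm42418 and -0.13 for Ubb. At least 500 genes gave 0.887% of barcodes, 145 higher genes, 0.058 for ribosomal proteins, a median ER and matrix share of 0.132%, 0.18 for Lor and 0.86 for Krt16. Ribosomal proteins were 0.24 against the nearest barcodes, 0.14 with equal weights, 0.29 over all UMIs (proteasome 0.50) and 0.059 with median scaling. That scaling also gave 132 higher genes, -0.0029 for Rpl13 and -0.41 for genes of at least 50 kb. A minimum of 200 CPM gave 21 higher, 92 lower and -0.10 for genes of at least 50 kb, one of 10 counts gave 898 and 4729, and one in the comparison arm alone gave 61 higher.

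In Diff_MK, members below 0.2% gave -0.0062 for ribosomal proteins and -0.82 for Malat1. At least 2000 genes left 0.132% of barcodes, with 280 higher genes, -0.013 for ribosomal proteins, -0.89 for Malat1, -0.87 for Sprr2d and -1.48 for Krt16. The main log2 ratios were 2.31 for Sprr2d and 0.42 for Krt16. At least 500 genes gave 1.36% of barcodes. Nearest barcodes gave 236 higher genes, 0.57 for the proteasome, -0.22 for genes of at least 50 kb, -0.018 for Actb and -0.083 for Krt16. Equal weights gave 260 higher genes and -0.14 for ribosomal proteins, which were 0.0045 over all UMIs (proteasome 0.46). Median scaling gave 52 higher genes, -0.23 for ribosomal proteins, -0.28 for genes of at least 50 kb and -0.031 for Actb. A minimum of 200 CPM gave 19 higher, 56 lower and 0.020 for genes of at least 50 kb, one of 10 counts gave 1051 and 4977, and one in the comparison arm alone gave 39 higher.

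Tag calls in comparison barcodes were 52.5% in MK and 69.2% in Diff_MK at 10 counts, 12.7 and 45.8% in the nearest barcodes, and 65.5% in Diff_MK where the leading tag had to exceed the next 2 times. Of the nearest barcodes only 25 of 110 in MK and 132 of 240 in Diff_MK were listed in the tag tables. The unlisted ones count as without a call, so these 2 values are not tag rates of readable barcodes. Malat1 was detected in 98.7% of MK comparison barcodes without thinning, and in Diff_MK in 99.7% at 1500 UMIs and 99.98% without thinning. Depth limits single genes, since 200 CPM stands for 18.8 UMIs in MK and 49.5 in Diff_MK.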
